A study of Homo sapiens with 14 samples.

Results

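The genes of matrix metalloproteases (MMP1, MMP2, MMP3, MMP9, MMP10, MMP13 and MMP14) and of the tissue inhibitors of metalloproteases (TIMP1, TIMP2 and TIMP3) were followed in MCF-10A cells, an immortalised, non-tumorigenic line of human mammary epithelial cells. These 10 genes were chosen by name, with earlier results of these data known, among the 27543 named loci of the deposited expression table. Each symbol marked 1 locus. RNA sequencing had been done on 14 libraries in 7 groups of 2, all from cells infected with a retrovirus and harvested on day 2 after infection. A pair of groups carried an empty vector, pMSCV Hygro (here Hygro vector) or pMSCV Puro (here Puro vector). YAP 5SA cells expressed a hyperactive form of YAP, the transcriptional coactivator that acts through TEAD factors. The other 4 groups expressed MRTFB, a coactivator of the serum response factor SRF, and all 4 forms had the dN change, which removes binding to G-actin. MRTFB dN was otherwise wild type, MRTFB dN dPY also lacked binding to YAP, MRTFB dN Y305A lacked binding to SRF, and MRTFB dN Y305A/dPY lacked both. The design asks which genes respond to MRTFB and which of these responses need binding to SRF or to YAP. The labels do not say whether replicates were separate infections, so p-values measure only the spread between these libraries.

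Metalloproteases are zinc enzymes that cut proteins of the extracellular matrix and of the cell surface. MMP14 sits in the membrane and, held in a complex with TIMP2, activates the secreted gelatinase MMP2. MMP9 is the other gelatinase, MMP1 and MMP13 are collagenases, and MMP3 and MMP10 are stromelysins. TIMP proteins block the active site of many of these enzymes, and TIMP3 binds to the matrix and also blocks several ADAM proteases. In mammary tissue these genes act in branching, in involution of the gland and in invasion of tumours.

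TIMP3 was the only 1 of 6 tested members called for the loss of SRF binding, with and without YAP binding. Of all tested loci 16.7% and 17.4% were called there, so the count of members is near that share. The level of TIMP3 is given first. Its level was 67 and 84 FPKM with MRTFB dN and 17.5 and 10.5 FPKM when the same protein carried Y305A, and it was 115 and 119 FPKM with MRTFB dN dPY against 7.94 and 11.7 FPKM with Y305A/dPY. TIMP2 was higher with MRTFB dN and with MRTFB dN dPY than with the Puro vector. Against the Hygro vector these differences did not pass (limma adjusted p = 0.11 and 0.079). MMP14, the abundant protease among the members, was called in no comparison. The secreted proteases MMP1, MMP3, MMP9 and MMP10 were near or at 0 in most libraries.

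Values are FPKM, that is, sequenced fragments relative to the length of the gene and the size of the library, so levels of different genes are per length. The table holds no counts. Relative depth, taken from the smallest steps between low values and set to 1 for Hygro vector replicate 1, ran from 0.315 in Puro vector replicate 1 to 1.39 in YAP 5SA replicate 1. Puro vector replicate 1 also stood apart by 4780 unnamed loci at 1 FPKM or more, against 211 to 669 in the other libraries, so the called changes named here that use it are also given with that library left out. In MRTFB dN dPY replicate 1 the later part of chromosome 7 and all of chromosomes 8, 9 and X hold no values, so TIMP1 has 1 library in that group. MKL2, the gene of MRTFB, was at 165 to 610 FPKM in the 8 MRTFB libraries and at 3.06 to 6.6 FPKM in the other libraries, and YAP1 was at 625 and 529 FPKM with YAP 5SA and at 18.3 to 50.9 FPKM elsewhere. All 14 epithelial markers reached 1 FPKM in at least 2 libraries, with CDH1 at 79.3 to 341 FPKM. The summed epithelial markers ran from 3049 FPKM in a Puro vector library to 63680 FPKM in an MRTFB dN library. KRT8 and KRT18 were listed at 0 in 2 libraries and reached 12554 and 16608 FPKM in others, so a 0 here says only that the gene is listed at 0. Of the listed fibroblast genes, PDGFRA stayed at or under 0.0287 FPKM and LUM at or under 0.0628 FPKM. FAP reached 70.7 FPKM, DCN 13.7 FPKM and COL3A1 3.76 FPKM, and COL1A1 was at 0.485 to 3.12 FPKM. The remaining fibroblast genes stayed at or under 0.411 FPKM, the highest value of THY1. The leukocyte gene PTPRC stayed at or under 0.0316 FPKM. Of the same list CD68 was at 295 to 793 FPKM, CD14 at 1.31 to 149 FPKM and CSF1R at 2.2 to 42 FPKM.

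The inhibitors and MMP14 were well expressed and the other proteases were near 0. TIMP1 had a median of 784 FPKM over 13 libraries, and TIMP2, MMP14 and TIMP3 had medians of 85.6, 78.8 and 39.1 FPKM over 14 libraries. MMP2 and MMP13 had medians of 0.461 and 0.177 FPKM. MMP14 made up 94.9% to 100% of the summed FPKM of the 7 protease genes in every library. Of the 10 members 6 reached 1 FPKM in at least 2 libraries and entered the test, which was limma on log2(FPKM + 1) with p-values adjusted by Benjamini-Hochberg over 13137 loci. MMP1, MMP3, MMP9 and MMP10 did not reach that level and entered only the fit with no filter on low values.

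**Figure D1:**
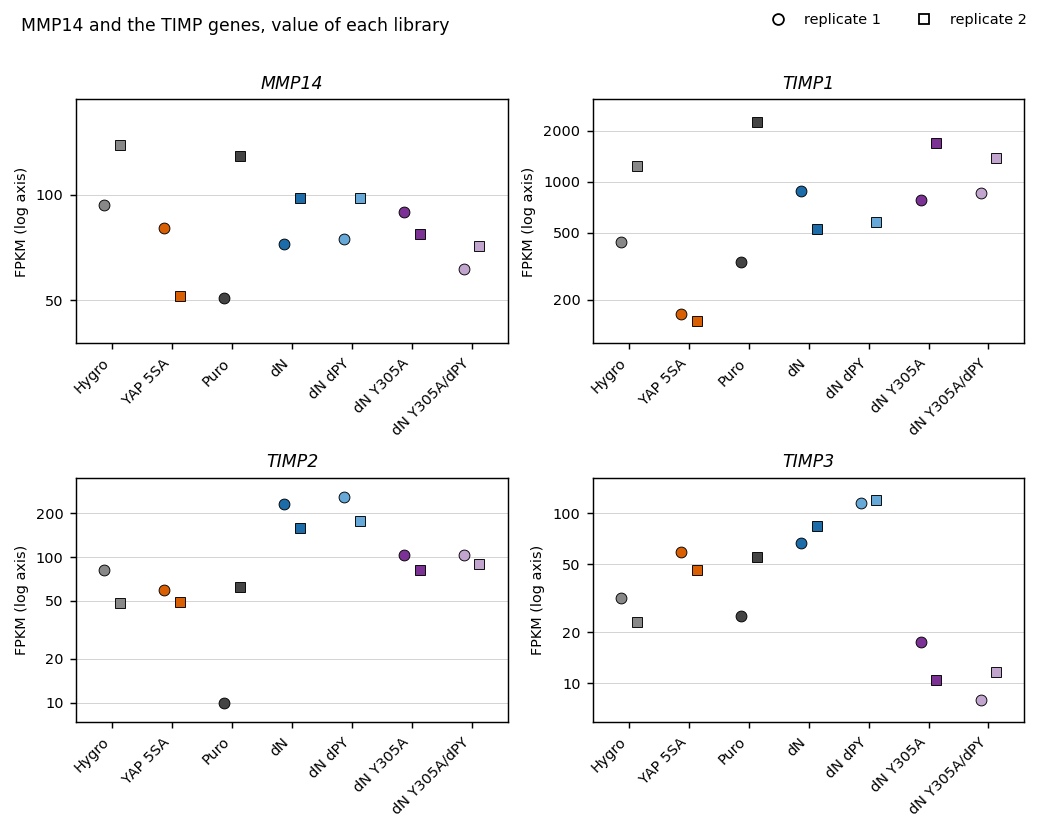
MMP14, TIMP1, TIMP2 and TIMP3 in FPKM (vertical, log axis, own scale in each panel) in the 7 groups (horizontal), with a circle for replicate 1 and a square for replicate 2. TIMP3 lies at 67 to 119 FPKM with the 2 MRTFB forms that can bind SRF and at 7.94 to 17.5 FPKM with the 2 Y305A forms, while the MMP14 libraries overlap between most groups.

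TIMP3 fell with the loss of SRF binding. MRTFB dN Y305A against MRTFB dN gave a log2 fold change of -2.38 ± 0.39 (SE, n = 2 and 2, limma adjusted p = 0.0016), a 5.22-fold lower value of FPKM + 1. With YAP binding removed as well, MRTFB dN Y305A/dPY against MRTFB dN dPY gave -3.46 ± 0.39 (adjusted p = 0.00013), 11-fold lower. In both comparisons every library of the SRF-binding form was above every library of the Y305A form, and the call held in all 11 alternatives tried for each. TIMP3 was the only 1 of the 6 tested members called in either comparison, where 16.7% and 17.4% of all tested loci were called. The difference between these 2 falls was 1.08 (95% interval -0.14 to 2.29), which did not pass (adjusted p = 1). These are bulk libraries, in which fewer cells that make a transcript and less of it per cell cannot be told apart. No member was called for that difference by limma, with 1 at an unadjusted p under 0.05, beside 0.0228% of all loci.

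Against the empty vectors the direction of TIMP3 turned with the SRF-binding site. In the Puro vector libraries it was at 24.7 and 55.3 FPKM and in the Hygro vector libraries at 31.7 and 22.8 FPKM. MRTFB dN dPY against Puro vector was higher by 1.63 ± 0.39 on the log2 scale (adjusted p = 0.0091). This came to 1.06 with Puro vector replicate 1 left out (adjusted p = 0.065) and to 2.08 against the Hygro vector (adjusted p = 0.0035). MRTFB dN against Puro vector gave 1.00 ± 0.39 (adjusted p = 0.066) and 1.45 against the Hygro vector (adjusted p = 0.025). Leaving out Puro vector replicate 1 it was 0.43 (adjusted p = 0.41), and with replicate 2 left out 1.56 (adjusted p = 0.01). Both forms without SRF binding lay under both Puro vector libraries. MRTFB dN Y305A gave -1.39 ± 0.39 (adjusted p = 0.028) and MRTFB dN Y305A/dPY gave -1.84 ± 0.39 (adjusted p = 0.0096). The first lost its call without either of its own libraries (-1.73, adjusted p = 0.084, and -1.04, adjusted p = 0.13). Leaving out Puro vector replicate 2 also ended it (-0.82, adjusted p = 0.12). The second lost its call without Y305A/dPY replicate 1 (-1.58, adjusted p = 0.091). With Puro vector replicate 1 left out they were -1.95 and -2.40. These falls were -0.94 (adjusted p = 0.31) and -1.39 (adjusted p = 0.098) against the Hygro vector. The MRTFB comparisons share the Puro vector libraries.

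Marker sums moved with this contrast as well. The summed epithelial markers moved in the direction of TIMP3, from 37007 and 63680 FPKM with MRTFB dN to 20250 and 36616 FPKM with Y305A, and from 30543 and 53657 FPKM with dN dPY to 12918 and 28782 FPKM with Y305A/dPY; the lower Y305A and Y305A/dPY sums hold libraries in which KRT8 and KRT18 are listed at 0. The summed endothelial markers, of which 1 of 7 reached 1 FPKM in at least 2 libraries, were at 2.86 to 2.87 FPKM with dN and 5.04 to 8.49 FPKM with Y305A, and at 0.785 to 1.33 FPKM with dN dPY and 4.66 to 14.8 FPKM with Y305A/dPY. The summed leukocyte and macrophage markers, of which 4 of 10 reached 1 FPKM in at least 2 libraries, were at 819 to 838 FPKM with MRTFB dN Y305A and 398 to 465 FPKM with MRTFB dN. Of these PTPRC stayed at or under 0.0316 FPKM, while CD14, CSF1R and CD68 had values in every library. The summed fibroblast markers, with 4 of 10 at 1 FPKM in at least 2 libraries, were at 16.5 to 26.4 FPKM with MRTFB dN Y305A and 7.61 to 17.5 FPKM with MRTFB dN, opposite to TIMP3. The part of any of these lists in the TIMP3 values was not tested. TIMP3 lies within an intron of SYN3 on the other strand, and SYN3 was at 0 to 2.71 FPKM. Whether counting used the strand is not given in the sources used here.

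The bases before the start of TIMP3 are shown because this member followed the SRF-binding site of MRTFB. SRF binds the CArG box, a run of A and T between CC and GG. The 250 bases before the RefSeq start of TIMP3 (GRCh38.p14, chr22:32801455-32801704, plus strand) hold no CArG box, but 2 stretches that miss it by 1 base, in capitals, which were looked for after the letters were seen.
TIMP3: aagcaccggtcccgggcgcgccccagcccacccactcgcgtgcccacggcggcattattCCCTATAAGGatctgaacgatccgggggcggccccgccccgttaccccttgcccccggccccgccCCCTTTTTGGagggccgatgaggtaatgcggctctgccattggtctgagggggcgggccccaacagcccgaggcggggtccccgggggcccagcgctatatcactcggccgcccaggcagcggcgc
These are CCCTATAAGG, from base -191 to -182, and CCCTTTTTGG, from base -126 to -117, counted from the start of transcription. Among 35116 promoter stretches of this length 1.16% hold a CArG box on either strand, 15.9% hold at least 1 stretch that misses it by 1 base and 2.66% hold 2 or more. MMP26, listed at 0 in all libraries, holds CCTTATAAAG and CTTATAAAGG, which overlap and also miss the box by 1 base. MMP8, with a highest value of 0.0208 FPKM, and MMP20 hold such a stretch each. MMP20 was at 2.13 and 1.99 FPKM with MRTFB dN and listed at 0 with Y305A (log2 difference -1.61, limma adjusted p = 7.1e-05). TIMP3 holds neither the AP-1 motif TGANTCA (6.57% of stretches) nor the TEAD motif GGAATG or its complement CATTCC (11.9%). Sequences of 4 of the 10 members were at hand, and a match in letters is not a measured binding site.

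TIMP2 lay above every vector library with all MRTFB forms and was highest with those that bind SRF, but the direct comparisons for SRF binding did not pass. TIMP2 is both an inhibitor and the docking partner through which MMP14 activates MMP2. Its level was 9.9 and 62 FPKM with the Puro vector and 81.5 and 48.4 FPKM with the Hygro vector. It was 230 and 159 FPKM with MRTFB dN and 257 and 177 FPKM with MRTFB dN dPY, above every vector library. MRTFB dN Y305A had 104 and 82 FPKM, and Y305A/dPY had 103 and 89.2 FPKM, between those groups and the vectors.

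The rise of TIMP2 over the Puro vector was 2.88 ± 0.64 on the log2 scale with MRTFB dN (adjusted p = 0.0063) and 3.03 ± 0.64 with MRTFB dN dPY (adjusted p = 0.0049). Its size depended on the low Puro vector replicate 1. With that library left out the values were 1.61 (adjusted p = 0.02) and 1.76 (adjusted p = 0.013), and with Puro vector replicate 2 left out they were 4.14 and 4.29. Against the Hygro vector they were 1.59 (adjusted p = 0.11) and 1.74 (adjusted p = 0.079). Leaving out MRTFB dN replicate 1 gave 2.61 (adjusted p = 0.058). With Y305A and with Y305A/dPY the differences from the Puro vector were 1.83 (adjusted p = 0.057) and 1.89 (adjusted p = 0.05, not under the threshold). These came to 0.56 and 0.62 with Puro vector replicate 1 left out (adjusted p = 0.38 and 0.32) and to 3.09 and 3.15 with replicate 2 left out (adjusted p = 0.0011 and 0.001). The direct comparisons for SRF binding did not pass, at -1.05 (95% interval -2.45 to 0.36) for MRTFB dN Y305A against MRTFB dN and -1.14 (-2.55 to 0.26) for the forms without YAP binding, although the libraries did not overlap. The summed epithelial markers were at 3049 and 3637 FPKM with the Puro vector, 16516 and 27721 FPKM with the Hygro vector, 37007 and 63680 FPKM with MRTFB dN and 30543 and 53657 FPKM with dN dPY, and their part in the TIMP2 values was not tested. CEP295NL, which overlaps TIMP2, was at 0.0307 to 1.3 FPKM.

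TIMP2 also separated the MRTFB dN response from the YAP 5SA response in the pairing with vectors chosen here, which the labels do not give. With YAP 5SA it was at 59.8 and 49.4 FPKM, a difference from the Hygro vector of -0.20 ± 0.64. With the vectors exchanged, YAP 5SA against the Puro vector gave 1.08 (limma adjusted p = 0.3). MRTFB dN against the Hygro vector then gave 1.59 (adjusted p = 0.11). The Puro vector differed from the Hygro vector by -1.28 (adjusted p = 0.19). The MRTFB dN response exceeded the YAP 5SA response by 3.08 ± 0.90 on the log2 scale (adjusted p = 0.027), the only call among the 6 tested members, where 29% of all loci were called. Without Puro vector replicate 1 the difference was 1.82 (adjusted p = 0.035). It lost the call without Hygro vector replicate 1 (2.71, adjusted p = 0.075), without YAP 5SA replicate 1 (3.22, adjusted p = 0.063) or replicate 2 (2.95, adjusted p = 0.085), without MRTFB dN replicate 1 (2.82, adjusted p = 0.1) and with no filter on low values (3.08, adjusted p = 0.059). In that unfiltered fit MMP10 was called instead (adjusted p = 0.035), a gene listed at 0 in the Puro vector and YAP 5SA libraries. The summed fibroblast markers were at 65.5 to 72.2 FPKM with YAP 5SA, 20.9 to 37 FPKM with the Hygro vector and 7.61 to 17.5 FPKM with MRTFB dN, and their part in this difference was not tested.

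TIMP1 was the most abundant member and its libraries varied widely. TIMP1 is a soluble inhibitor secreted by many cell types. Its level was 440 and 1245 FPKM with the Hygro vector and 335 and 2276 FPKM with the Puro vector, so the replicates of 1 vector differed more than most groups. With YAP 5SA it was 164 and 149 FPKM, below all 11 other libraries with a value. The difference of YAP 5SA from the Hygro vector, -2.24 ± 0.85 on the log2 scale, did not pass (adjusted p = 0.14), and neither did that from the Puro vector (-2.48, adjusted p = 0.097). TIMP3 with YAP 5SA was at 58.8 and 46.5 FPKM, above both Hygro vector libraries, and its difference of 0.93 ± 0.39 did not pass either (adjusted p = 0.17). No tested member was called with YAP 5SA by limma, 2 had an unadjusted p under 0.05, and 8.27% of all loci were called.

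In the MRTFB libraries TIMP1 was at 881 and 525 FPKM with dN, 577 FPKM in the single dN dPY library, 784 and 1708 FPKM with Y305A and 856 and 1385 FPKM with Y305A/dPY. Its differences from the Puro vector ran from -0.60 to 0.41 on the log2 scale and none passed. With Puro vector replicate 1 left out they ran from -1.98 to -0.98, with adjusted p from 0.12 to 0.4. The interval for MRTFB dN against the Puro vector ran from -2.27 to 1.55 and so holds changes of several fold in either direction. SYN1, in whose intron TIMP1 lies, was at or under 0.249 FPKM.
The 250 bases before the start of TIMP1 (GRCh38.p14, chrX:47582186-47582435, plus strand) are given as those of the most abundant member. None of the motifs named above is in them, but stretches that miss the AP-1 or TEAD motif by 1 base were not searched for.
TIMP1: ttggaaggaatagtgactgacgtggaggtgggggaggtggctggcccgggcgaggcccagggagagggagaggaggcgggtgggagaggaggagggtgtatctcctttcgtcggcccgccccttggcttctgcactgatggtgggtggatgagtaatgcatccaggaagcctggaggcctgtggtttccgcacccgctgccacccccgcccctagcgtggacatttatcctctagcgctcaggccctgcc

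MMP14 was called in no comparison. Its level was 93.4 and 139 FPKM with the Hygro vector, 50.7 and 129 FPKM with the Puro vector and 80.4 and 51.4 FPKM with YAP 5SA. With MRTFB it was 72.5 and 97.9 FPKM for dN, 74.6 and 98.3 FPKM for dN dPY, 89.6 and 77.2 FPKM for Y305A and 61.4 and 71.5 FPKM for Y305A/dPY. All MRTFB libraries lay between the Puro vector libraries. The difference of MRTFB dN from the Puro vector was 0.06 (95% interval -0.88 to 1.00), and that of MRTFB dN Y305A from MRTFB dN was -0.02 (-0.96 to 0.92). With Puro vector replicate 1 left out, the differences of the 4 MRTFB groups from the Puro vector were -0.61, -0.58, -0.62 and -0.95, in the order given, with adjusted p from 0.13 to 0.3. YAP 5SA libraries were below both Hygro vector libraries, with a difference of -0.81 (-1.75 to 0.13, adjusted p = 0.29).
The bases before the start of MMP14 (GRCh38.p14, chr14:22836335-22836584, plus strand) serve as the counterpart of those of TIMP3 and hold none of the motifs searched.
MMP14: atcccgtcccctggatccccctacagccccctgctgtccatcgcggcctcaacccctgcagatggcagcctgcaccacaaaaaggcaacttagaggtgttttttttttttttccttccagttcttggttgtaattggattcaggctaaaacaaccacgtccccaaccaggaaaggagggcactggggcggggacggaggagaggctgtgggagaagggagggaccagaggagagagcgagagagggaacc

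The ratio of inhibitor to membrane protease was above that of the vectors in all MRTFB libraries for TIMP2, and is given as a description with no test. The ratio of TIMP2 to MMP14 in FPKM was 0.872 and 0.349 with the Hygro vector, 0.195 and 0.481 with the Puro vector and 0.744 and 0.962 with YAP 5SA, all below 1. It was 3.18 and 1.63 with MRTFB dN and 3.44 and 1.8 with MRTFB dN dPY. With Y305A it was 1.16 and 1.06, and with Y305A/dPY 1.67 and 1.25. All 8 MRTFB libraries thus had more TIMP2 than MMP14 per length, and the 6 others had less. With TIMP1 included, the lowest ratios of inhibitors to MMP14 were those of YAP 5SA, 3.51 and 4.76, and the highest was 23.3 in MRTFB dN Y305A replicate 2. TIMP1 made up 58% to 95.1% of the summed inhibitors.

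**Figure D2:**
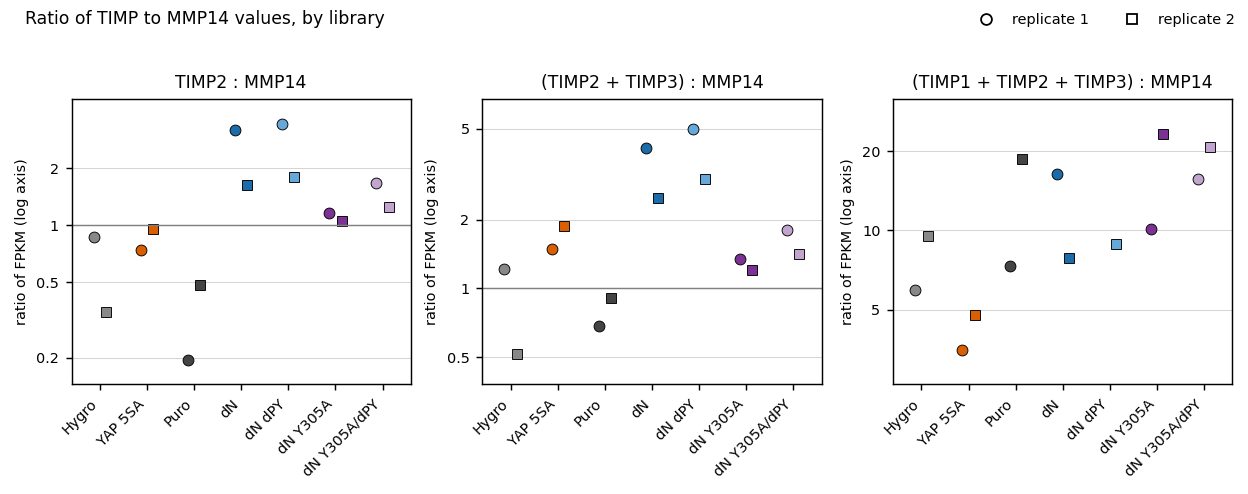
Ratio of TIMP to MMP14 values in FPKM (vertical, log axis) in each library of the 7 groups (horizontal), for TIMP2 alone, for TIMP2 with TIMP3 and for the 3 inhibitors together, with a circle for replicate 1 and a square for replicate 2. The ratio of TIMP2 to MMP14 is above 1 in the MRTFB libraries, from 1.06 to 3.44, and below 1 in the vector and YAP 5SA libraries; the right panel has no point for MRTFB dN dPY replicate 1, where TIMP1 is missing.

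MMP2, the gelatinase that MMP14 activates, was low in every library. Its level was 0.0805 and 0.365 FPKM with the Hygro vector, 0.102 and 0.656 FPKM with the Puro vector and 0.0232 and 0.0133 FPKM with YAP 5SA. It was 0.525 and 0.788 FPKM with MRTFB dN, 0.826 and 1.14 FPKM with dN dPY, 1.41 and 1.08 FPKM with Y305A and 0.397 and 0.279 FPKM with Y305A/dPY. Both Y305A libraries were above both Puro vector libraries, and the difference of 0.73 ± 0.24 on the log2(FPKM + 1) scale passed narrowly (adjusted p = 0.047). That call was lost in 9 of 12 alternatives, among them leaving out Puro vector replicate 1 (0.44, adjusted p = 0.22) or either Y305A library. The Y305A/dPY libraries were below the Y305A libraries by 0.74, an unadjusted p of 0.01 that was not called; in that comparison limma called no member, 1 had an unadjusted p under 0.05, and 0.0152% of all loci were called.

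MMP13, a collagenase that degrades fibrillar collagen, was highest in the Y305A/dPY libraries. Its level there was 2.87 and 0.699 FPKM, and with Y305A alone it was 1.2 and 0.176 FPKM. In the vector libraries it lay at 0.0709 to 0.191 FPKM, with MRTFB dN at 0.225 and 0.108 FPKM, with dN dPY at 0.406 and 0 FPKM and with YAP 5SA at 0 in both. Y305A/dPY against Puro vector gave 1.11 ± 0.38 (adjusted p = 0.051), and against dN dPY the same 1.11 ± 0.38 (adjusted p = 0.069). Neither passed. With a replicate block both were called (adjusted p = 0.029 and 0.035), and with Puro vector replicate 1 left out the first had an adjusted p of 0.15. Without Y305A/dPY replicate 2 both reached 1.71, with adjusted p = 0.016 and 0.014, and the highest value was in a single library.

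Among the other secreted proteases, MMP1 and MMP3 rested on very few fragments. When FPKM was multiplied by relative depth, the low values of each gene were whole multiples of a smallest step, within 0.1 of a step for values up to 10 steps. MMP1, the interstitial collagenase, was listed at 0 in 9 of 14 libraries and was at 1 or 2 steps in the others, with a highest value of 0.0742 FPKM. MMP3, a stromelysin, was at 0 in 7 libraries and at 1 to 6 steps in the others, the highest 0.175 FPKM in Hygro vector replicate 1. At this depth no difference between groups could be read for either.

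MMP9 was highest in the Hygro vector libraries, most of all in replicate 2. Its level there was 0.487 and 4.21 FPKM, about 22 and 152 steps, against 0.0704 and 0.366 FPKM with the Puro vector. With Y305A it was 0.0884 and 0.254 FPKM, in the other MRTFB libraries it was at or under 0.0547 FPKM, and with YAP 5SA it was listed at 0 in both. In the limma fit with no filter on low values, YAP 5SA against the Hygro vector gave -1.48 (adjusted p = 0.12). The Puro vector against the Hygro vector gave -1.20 (adjusted p = 0.12), and neither passed.

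MMP10, the other stromelysin, had values in 3 of the 7 groups. It was at 0.152 and 0.92 FPKM with the Hygro vector, at 0.314 and 0.307 FPKM with MRTFB dN and at 0.18 and 0.238 FPKM with MRTFB dN dPY, which is 3 to 24 steps. It was listed at 0 in all 8 other libraries, the Puro vector, YAP 5SA and both Y305A groups. The values above 0 in the MRTFB libraries rest on 6 and 7 steps with dN and 3 and 6 steps with dN dPY, and with no filter on low values neither dN Y305A against dN (adjusted p = 0.26) nor Y305A/dPY against dN dPY (adjusted p = 0.48) passed.
The bases before the start of MMP10 (GRCh38.p14, chr11:102780629-102780878, minus strand, read 5′ to 3′ towards the gene) are shown because they hold, in capitals, the AP-1 motif that is known for MMP promoters.
MMP10: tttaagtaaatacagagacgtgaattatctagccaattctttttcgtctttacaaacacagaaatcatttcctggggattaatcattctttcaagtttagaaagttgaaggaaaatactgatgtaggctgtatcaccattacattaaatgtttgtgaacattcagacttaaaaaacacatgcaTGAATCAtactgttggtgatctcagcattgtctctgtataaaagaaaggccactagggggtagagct
This TGAATCA lies from base -67 to -61, no CArG box or TEAD motif is present, and 6.57% of all stretches hold an AP-1 match.

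**Figure D3:**
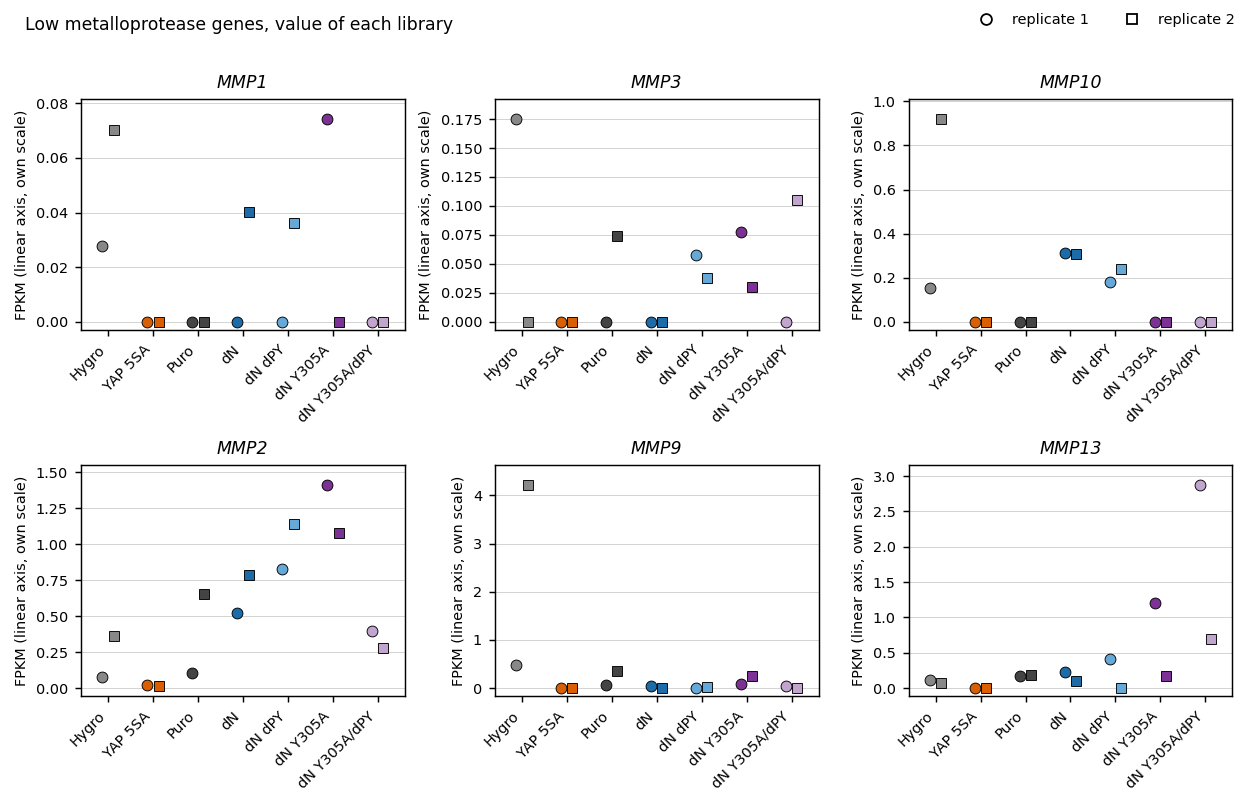
MMP1, MMP3, MMP10, MMP2, MMP9 and MMP13 in FPKM (vertical, linear axis with its own scale in each panel) in the 7 groups (horizontal), with a circle for replicate 1 and a square for replicate 2. MMP10 is above 0 only with the Hygro vector, MRTFB dN and MRTFB dN dPY, and MMP9 reaches 4.21 FPKM in a single Hygro vector library.

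The remaining comparisons called at most 2 of the 6 tested members each. With 6 genes such counts are not read as a result about the members, and the share of all loci is given beside them. MRTFB dN against Puro vector called 1 member (TIMP2), beside 36.8% of all loci, and MRTFB dN dPY called 2 (TIMP2 and TIMP3), beside 35.8%. MRTFB dN Y305A called 2 (TIMP3 and MMP2), beside 25.2%, and Y305A/dPY called 1 (TIMP3), beside 26.4%. Loss of YAP binding alone, dN dPY against dN, called no member by limma, none had an unadjusted p under 0.05, and 0.236% of all loci were called. The Puro vector against the Hygro vector called no member, again with none at an unadjusted p under 0.05, although 14.2% of all loci were called. The calls against the Puro vector were lost when the spread was estimated from the compared groups alone, which leaves 2 libraries on each side.

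**Figure D4:**
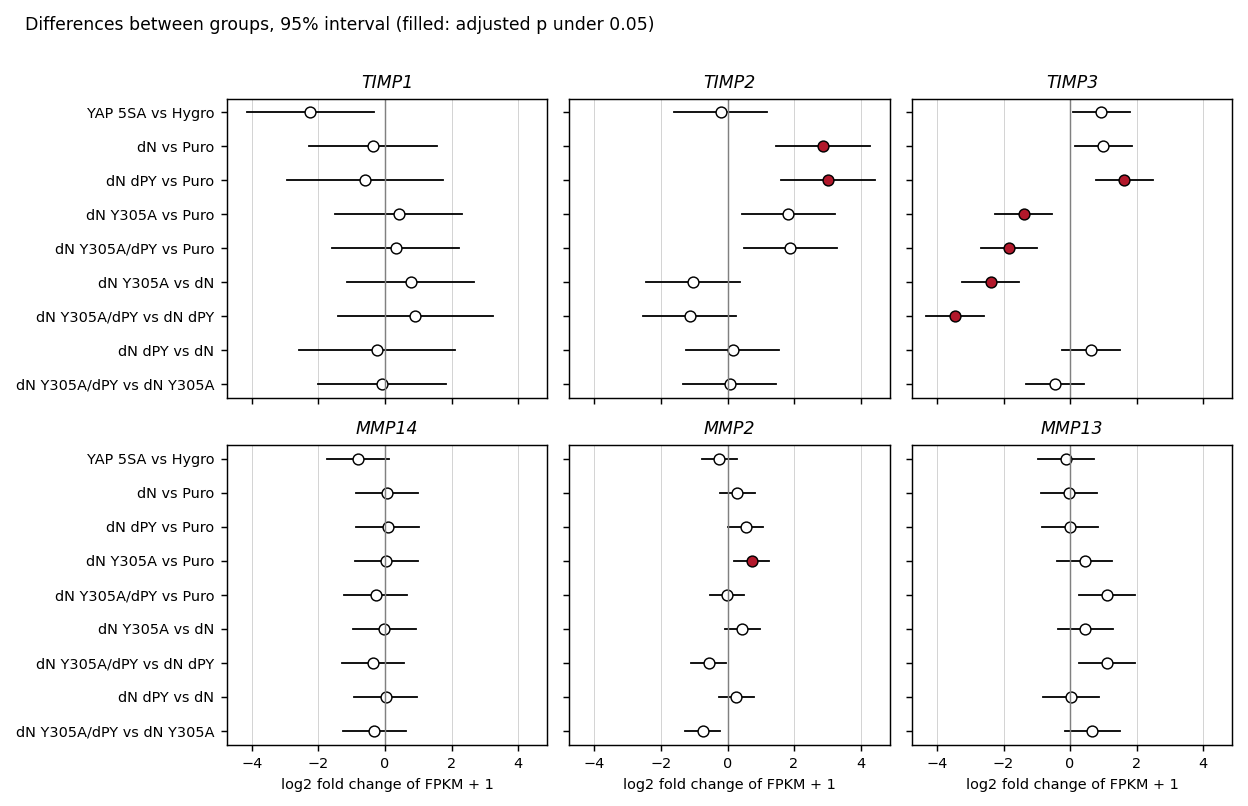
Log2 fold change of FPKM + 1 (horizontal) with its 95% interval for the 6 tested members in 9 comparisons (vertical), filled where the adjusted p is under 0.05. TIMP3 is filled in both comparisons for SRF binding, at -2.38 and -3.46, TIMP2 is filled at 2.88 and 3.03 for the forms that bind SRF against the Puro vector, and no MMP14 point is filled.

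Among the 16 other metalloprotease genes 8 reached the test. With MRTFB dN 3 rose and 1 fell against the Puro vector, with a median log2 difference of -0.16 beside 0.09 over all tested loci, of which 36.8% were called. MMP12, the macrophage elastase, was at 14.9 and 99.9 FPKM with MRTFB dN and 5.91 and 43.9 FPKM with dN dPY. It was listed at 0 in both Puro vector libraries and in all 4 Y305A libraries, and at or under 0.107 FPKM in the Hygro vector and YAP 5SA libraries. MRTFB dN against the Puro vector (adjusted p = 0.001) and MRTFB dN Y305A against MRTFB dN (adjusted p = 0.0012) were both called, and stayed called in the 12 and 11 alternatives tried, with adjusted p = 0.0084 for the first when Puro vector replicate 1 was left out. MMP12 lies in a row of metalloprotease genes on chromosome 11 between MMP3 and MMP13, whose values are given above. Of the leukocyte and macrophage markers, PTPRC stayed at or under 0.0316 FPKM in all libraries. CD14, CSF1R and CD68 of the same list reached 149, 42 and 793 FPKM. The part of these markers in the MMP12 values was not tested.

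MMP15, a membrane protease like MMP14, was at 1.78 and 6.67 FPKM with the Puro vector and 22.4 and 30 FPKM with MRTFB dN (2.54 ± 0.42 on the log2 scale, adjusted p = 0.0013). MMP28 fell from 76.2 and 24.9 FPKM to 2.46 and 1.28 FPKM (-3.99 ± 0.44, adjusted p = 9.5e-05). Both genes also lay beyond the Puro vector libraries without SRF binding. MMP15 was at 16.3 and 14.8 FPKM with Y305A and 15.4 and 14.7 FPKM with Y305A/dPY. MMP28 was at 1.23 and 1.67 FPKM and at 3.2 and 4.69 FPKM there. MMP20 rose from listed 0 with the Puro vector to 2.13 and 1.99 FPKM with MRTFB dN (adjusted p = 6.5e-05). The symbols MMP20 and MMP28 each mark more than 1 locus, so these values are uncertain. Leaving out Puro vector replicate 1, MMP15 gave 1.81 (adjusted p = 0.0055), MMP28 -3.21 (adjusted p = 0.00027) and MMP20 an adjusted p of 0.00018. MMP7, the matrilysin made by epithelia, fell with YAP 5SA against the Hygro vector, from 18.9 and 8.38 FPKM to 0.411 and 0.902 FPKM (-3.06 ± 0.35, adjusted p = 0.00094). It was at 0.992 and 0.199 FPKM with the Puro vector, against which the YAP 5SA difference was 0.08, so the sign depends on the vector. Its call was also lost with the compared groups alone (adjusted p = 0.059). MMP19 rose from 0.37 and 0.945 FPKM with MRTFB dN to 3.88 and 2.45 FPKM with Y305A (1.33 ± 0.32, adjusted p = 0.015), a call lost without MRTFB dN replicate 1 (1.08, adjusted p = 0.12) or Y305A replicate 1 (1.08, adjusted p = 0.11) and with the compared groups alone (adjusted p = 0.056).

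**Figure D5:**
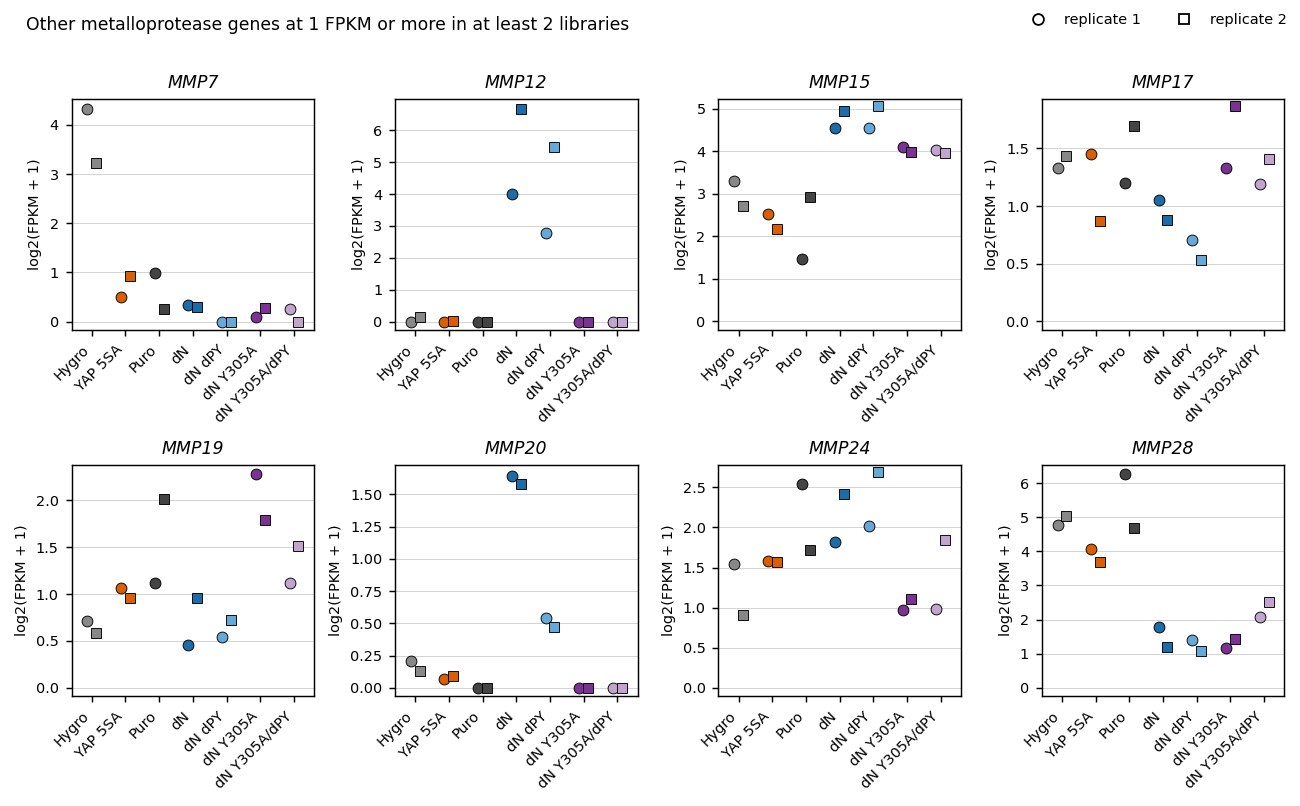
The 8 other metalloprotease genes that were tested, as log2(FPKM + 1) (vertical, own scale in each panel) in the 7 groups (horizontal), with a circle for replicate 1 and a square for replicate 2. MMP12 is high only with MRTFB dN and with dN dPY, from 5.91 to 99.9 FPKM, and MMP7 only in the Hygro vector libraries, at 18.9 and 8.38 FPKM.

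Genes that activate, dock or clear metalloproteases were called in both directions. Of 19 tested, 4 rose and 2 fell with MRTFB dN against the Puro vector, where 36.8% of all loci were called, 2868 of them higher and 1969 lower. With MRTFB dN Y305A against MRTFB dN 4 rose and 4 fell, beside 16.7% of all loci. ITGB3, an integrin chain, rose from 0.0263 and 0.158 FPKM to 17.2 and 26.5 FPKM with MRTFB dN (4.36 ± 0.25, adjusted p = 7.9e-07) and was at 0.0329 and 0.0433 FPKM with Y305A. PLAU, the urokinase that activates plasminogen, rose from 7.68 and 13.6 FPKM with MRTFB dN to 444 and 763 FPKM with Y305A (5.70 ± 0.96, adjusted p = 0.0019). The Puro vector libraries had 6.33 and 57.2 FPKM of PLAU. THBS1, a matricellular protein, had 270 and 396 FPKM with MRTFB dN and 23.6 and 9.87 FPKM with Y305A (-4.32 ± 0.76, adjusted p = 0.0025). FURIN, the protease that cuts the propeptide of MMP14, rose with MRTFB dN to 148 and 155 FPKM from 24.7 and 55.4 FPKM (2.00 ± 0.40, adjusted p = 0.004), which did not pass against the Hygro vector (1.27, adjusted p = 0.051) or with the compared groups alone (adjusted p = 0.054). Both stayed called with Puro vector replicate 1 left out, where ITGB3 gave 4.27 (adjusted p = 2e-05) and FURIN 1.43 (adjusted p = 0.028).

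Of 17 tested matrix substrates, 8 rose and 1 fell with MRTFB dN (median 0.89, beside 0.09 over all loci, of which 36.8% were called). With Y305A against dN 1 rose and 9 fell (median -1.38, beside 0.03 over all loci, of which 16.7% were called). FN1, fibronectin, was at 3.38 and 64.3 FPKM with the Puro vector, 771 and 1710 FPKM with MRTFB dN and 10.1 and 9.91 FPKM with Y305A (-6.71 ± 1.03 for the last step, adjusted p = 0.0011). COL4A1, a chain of basement membrane collagen, was at 332 and 501 FPKM with MRTFB dN and 23.2 and 24.3 FPKM with Y305A (-4.05 ± 0.77, adjusted p = 0.004). TNC, tenascin, whose locus also carries another symbol, was at 234 and 288 FPKM with MRTFB dN and 3.7 and 4.02 FPKM with Y305A (-5.75 ± 0.88, adjusted p = 0.0015). The call for TNC was lost when the zeros of the empty part of MRTFB dN dPY replicate 1 were kept (-5.75, adjusted p = 0.14).

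ADAM and ADAMTS proteases, several of which TIMP3 inhibits, were also called in both directions, with 5 up and 3 down of 12 tested with MRTFB dN, beside 36.8% of all loci. ADAMTS1 rose from 0.135 and 0.497 FPKM to 133 and 151 FPKM (6.78 ± 0.47, adjusted p = 3.6e-06) and was at 0.28 and 0.464 FPKM with Y305A. ADAM19 rose from 0.544 and 3.34 FPKM to 38.3 and 67.4 FPKM (4.32 ± 0.58, adjusted p = 0.00039). Both stayed called with Puro vector replicate 1 left out, at 6.58 (adjusted p = 0.00011) and 3.58 (adjusted p = 0.0042). ADAM15 was at 128 and 119 FPKM with MRTFB dN and 732 and 679 FPKM with Y305A (2.50 ± 0.37, adjusted p = 0.00085). With YAP 5SA 2 of the 12 rose and 2 fell, beside 8.27% of all loci, among them ADAMTS12, which rose from 0.168 and 0.262 FPKM to 5.24 and 4.14 FPKM (2.22 ± 0.24, adjusted p = 0.0008).

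Of 21 tested AP-1, ETS and other factors known to act on metalloprotease promoters, 4 rose and 4 fell with MRTFB dN, near the 36.8% of all loci called there, and 5 rose and 1 fell with Y305A against dN, beside 16.7%. FOSL1, an AP-1 subunit, was at 3.29 and 2.72 FPKM with MRTFB dN and 11.6 and 17.9 FPKM with Y305A (1.95 ± 0.32, adjusted p = 0.0016). ETV4, an ETS factor, was at 1.08 and 1 FPKM and at 18.1 and 19.4 FPKM (3.27 ± 0.40, adjusted p = 0.00023). JUN rose with MRTFB dN from 4.85 and 6.06 FPKM to 30.2 and 29.7 FPKM (2.27 ± 0.36, adjusted p = 0.0011), which against the Hygro vector was 0.51 and did not pass (adjusted p = 0.38). Of 14 tested inducers of these genes 4 rose and 4 fell with MRTFB dN, again beside 36.8%. EGF rose from 0.0887 and 0.0869 FPKM to 24.2 and 26 FPKM (4.58 ± 0.18, adjusted p = 4.5e-08) and TGFB2 from 0.373 and 3.43 FPKM to 54.6 and 53.2 FPKM (4.48 ± 0.48, adjusted p = 8.7e-05). With Puro vector replicate 1 left out, JUN gave 2.13 (adjusted p = 0.0096), EGF 4.58 (adjusted p = 9.4e-07) and TGFB2 3.63 (adjusted p = 0.00033). With Y305A EGF and TGFB2 were at 0.122 and 0.199 FPKM and at 0.229 and 0.191 FPKM.

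The tested members did not share a single profile over the libraries. As a description over 14 libraries that share groups, or 13 with TIMP1, Pearson's r of log2(FPKM + 1) between members ran from -0.60 (TIMP3 and MMP13) to 0.57 (TIMP1 and MMP2), and it was 0.38 for TIMP2 with TIMP3. Among 8275 other loci, TIMP3 was most like ERRFI1, THRA and CBX7 (0.94 each), and TIMP2 most like PTTG1IP (0.96) and SLC17A5 (0.95). MMP14 had lower likeness to any locus, with GGA1 at 0.85 and SLC3A2 and NARFL at 0.82. TIMP1 was most like APOA1BP and IL10RB (0.94) and AGTRAP (0.93) among 9605 loci. For the low genes, MMP2 was most like TMEM255B (0.88), SMTN (0.87) and TSPAN15 (0.85), and MMP13 most like PPP2R5A and SLC15A3 (0.93) and GNGT2 (0.91).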

How the data were processed

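Poly(A)-selected, strand-specific libraries of MCF-10A cells were read from both ends on a NextSeq instrument, per the labels' protocols. The deposited table holds FPKM made by the authors with Bowtie, TopHat, Cufflinks and Cuffnorm on hg19, per the submitters' processing notes; versions, annotation and library scaling are not given in the sources used here. Loci that have a name and reached 1 FPKM in 2 or more libraries (13137 of 34071) were fitted together as log2(FPKM + 1) with limma 3.58.1 in R 4.3.3 (14 libraries, 7 groups, intensity trend, two-sided), with Benjamini-Hochberg adjustment at 0.05. Tables were made in Python 3.11.15. The empty part of MRTFB dN dPY replicate 1 (5257 loci) was treated as missing. The fit was tested on simulated data. The labels do not pair constructs with vectors: YAP 5SA was set against the Hygro vector and MRTFB against the Puro vector, and the other vector was tried. Depth is known only between libraries, so no counting interval is given.

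The members and all lists were chosen with earlier results of these data known. Named genes are the 10 members, up to 4 called genes of largest change per list in 3 comparisons (some of them printed), the 3 loci most like each tested member that reach 5 FPKM, MKL2 and YAP1. Some of these are not reported here. Other settings tried were the median of ratios for scaling, a pseudocount of 0.1, no filter, no trend, the compared groups alone, a replicate block, zeros of the empty part kept, the other vector, and leaving out each library. Promoter letters are from RefSeq (GRCh38.p14), another build than that of the values, whose table has no coordinates.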

Additional observations from a re-analysis of the deposited data

Results flagged for a closer look

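TIMP2 differed between the contrasts of MRTFB dN with the Puro vector and of YAP 5SA with the Hygro vector. The test of the difference itself gave 3.08 ± 0.90 on the log2 scale (limma adjusted p = 0.027), from a rise of 2.88 with MRTFB dN and a change of -0.20 with YAP 5SA. With the vectors exchanged these were 1.59 and 1.08, so the size of the difference depends on the pairing with vectors. TIMP2 was higher in both MRTFB dN libraries (230 and 159 FPKM) than in both Puro vector libraries (9.9 and 62 FPKM), and the YAP 5SA libraries (59.8 and 49.4 FPKM) lay within the range of the Hygro vector libraries (81.5 and 48.4 FPKM).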

How the results depend on the processing

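Members called, out of 6 tested, changed as follows, and the cause was not tested unless named. With only the compared groups in the fit, which leaves fewer libraries, the counts for MRTFB dN, dN dPY, Y305A and Y305A/dPY against the Puro vector and for the MRTFB dN response against the YAP 5SA response were all 0. With the Hygro vector in place of the Puro vector, dN dPY had 1, Y305A 0 and Y305A/dPY 0. Y305A against the Puro vector had 1 with a pseudocount of 0.1, with the median of ratios, with no intensity trend and with zeros kept, and Y305A/dPY had 2 with no trend. Leaving out 1 library gave 0 to 2 for dN, 1 to 3 for dN dPY, 0 to 2 for Y305A and 0 to 2 for Y305A/dPY against the Puro vector, 1 to 2 for Y305A/dPY against dN dPY, 0 to 1 for Puro against Hygro vector and 0 to 4 for the MRTFB dN response against the YAP 5SA response; the lone library is then assumed to vary like the other groups. With a replicate block, Y305A/dPY had 2 against the Puro vector and 2 against dN dPY, MMP13 being added each time (adjusted p = 0.029 and 0.035). Deviations of libraries of the same number correlated at -0.14 to 0.65 over pairs of groups, and at 0.32 to 0.65 in the 4 comparisons among MRTFB groups. With 2 libraries a group the numbers were not taken to pair the libraries. Against the other vector, 3 signs turned: MMP7 (0.08) and ADAMTS9 (0.59) with YAP 5SA and EREG (0.38) with MRTFB dN. Of 935 alternative values of single genes, 794 kept direction and side of the threshold, 129 lost the call, 9 gained it and 3 reversed. The low genes are limited by depth, with MMP1 and MMP3 at no more than 6 steps in any library.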
